A study of Mus musculus with 12 samples.

Results

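Survivin-deleted hepatocellular carcinoma (HCC) was compared with wild-type HCC on 6 of the 12 single-colour Agilent mouse arrays of the series, chosen by their titles, with 3 arrays in each group. The survivin-deleted HCC arrays came from mice of genotype Mxcre+, and the wild-type HCC arrays from mice of genotype Mxcre-, which lack the Mx-Cre transgene and keep survivin. Mx-Cre is a recombinase that poly(IC) switches on through interferon, in hepatocytes and in blood-forming and other cells, so the deletion is not limited to tumour cells. Both groups shared every treatment. Male mice of the mixed strain 129/SV/B6 received N-nitrosodiethylamine (DEN), a liver carcinogen, at 50 mg/kg at 2 weeks of age, and were given poly(IC) 8 months after DEN. Tissue was collected 1 week after poly(IC), when 2 months had passed since irradiation and transplantation of bone marrow. The genotype of the donor marrow and the deleted stretch of Birc5, the survivin gene, are not given in the sources used here. The other 6 arrays hold non-cancerous liver of both genotypes and are used here to set levels beside the tumours and to share the estimate of spread. Nothing in the labels ties each array to its own animal, so the p-values measure the spread between these arrays, which may be technical.

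Survivin is the smallest member of the chromosomal passenger complex, which it forms with the kinase Aurora B, INCENP and borealin, and which corrects the attachment of chromosomes to the spindle and is needed for cytokinesis. It also belongs to the family of inhibitor of apoptosis proteins. In liver, adult hepatocytes divide rarely and survivin is low, while it is high in proliferating tumour cells and in dividing blood-forming and immune cells. Hepatocytes around the central vein differ from those around the portal tract, since Wnt signals from central vein endothelium maintain glutamine synthesis, bile acid synthesis and drug metabolism in the pericentral cells.

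Levels are log2 signals relative to the 75th percentile of the array, so that a level of 0 is the 75th percentile, and differences are survivin-deleted minus wild-type HCC on the log2 scale. Replicate 1 of each group was on 1 slide, whose 75th percentile signal was 1131 to 1766, and replicates 2 and 3 on another, at 3343 to 3906. Between 69.2 and 79.1% of the spots of the HCC arrays were well above background. On the liver arrays of slide 1 it was 49.0% for wild-type and 83.4% for survivin-deleted liver, and on those of slide 2 70.0 to 79.7%. Slide was therefore a term in the fit, and slide 2 alone (2 arrays against 2) is given beside it. The scanner file of wild-type HCC replicate 1 holds the values that the deposited value table lists as survivin-deleted liver replicate 1, and the reverse (r = 1.00 with the other array's column and 0.970 with its own, across 55045 probes). The values below follow the scanner files ("as filed"), and the second reading, in which these 2 arrays change places ("exchanged"), is given for most of the list medians and many of the genes. In the exchanged reading the array filed as survivin-deleted liver replicate 1 serves as wild-type HCC replicate 1.

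Birc5 was read by 3 probes on chromosome 11 (mm9), described here in order of position; the exon of each is not given in the sources used here. The sequence of the first is shown because it gave the clearest parting of the groups, at chr11:117711112-117711171, in lower case with no part marked.
Birc5 probe 1: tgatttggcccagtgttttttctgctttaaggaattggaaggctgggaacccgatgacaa

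On this probe the survivin-deleted HCC arrays read -2.68, -2.56 and -2.93, against -2.03, -0.85 and 0.09 in wild-type HCC (replicates 1, 2 and 3 in each). Every survivin-deleted array lay below every wild-type array. The difference was -1.79 (SE 0.71), a 3.46-fold lower signal, with an unadjusted p of 0.0307 by limma. The exact two-sided permutation test gave p = 0.1, the smallest that 3 arrays against 3 allow. The array filed as wild-type HCC replicate 1, at -2.03, was the lowest of its group, and the array filed as survivin-deleted liver replicate 1 read -0.33. In the exchanged reading the difference was -2.36 (SE 0.33, limma unadjusted p = 3.19e-05, exact permutation p = 0.1), and slide 1 and slide 2 gave -2.35 and -2.36. Slide 1 as filed gave -0.65. In non-cancerous liver the probe read -0.33, -2.54 and -3.33 in survivin-deleted and -0.23, -1.21 and -1.03 in wild-type arrays, so replicates 2 and 3 followed their labels and the array filed as survivin-deleted liver replicate 1 did not.

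The second probe, at chr11:117714057-117714116, read -0.24, -0.61 and -0.99 in survivin-deleted HCC and -0.57, 0.57 and 1.41 in wild-type HCC. The array filed as wild-type HCC replicate 1 lay inside the survivin-deleted range, so the groups overlapped (difference -1.09, SE 0.58; exact permutation p = 0.2). Exchanged, the groups parted, with a difference of -1.51 (SE 0.29) and an exact permutation p of 0.1. The third probe, at chr11:117716978-117717037, had the highest mean signal and stands for Birc5 in the fit across genes. It read 0.06, 0.17 and -0.08 in survivin-deleted HCC and 0.80, 0.82 and 1.76 in wild-type HCC, with no overlap, and differed by -1.08 as filed (SE 0.69, exact permutation p = 0.1) and by -1.62 exchanged. The signal of Birc5 was thus lower on all 3 probes in group means under each reading, and not at background on any of the 6 arrays. A probe outside the deleted stretch may not report the deletion, and which of the 3 probes lie inside it is not known here. Leaving out wild-type HCC replicate 3 or survivin-deleted HCC replicate 1 brought the difference of the third probe to -0.53 and -0.56. In non-cancerous liver the third probe read 2.42, -0.10 and -1.07 in survivin-deleted and 2.85, 0.51 and 0.76 in wild-type arrays. Its mean was 1.37 in wild-type liver and 1.12 in wild-type HCC, with overlapping arrays, so wild-type liver was not the lower of these on this probe.

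**Figure D1:**
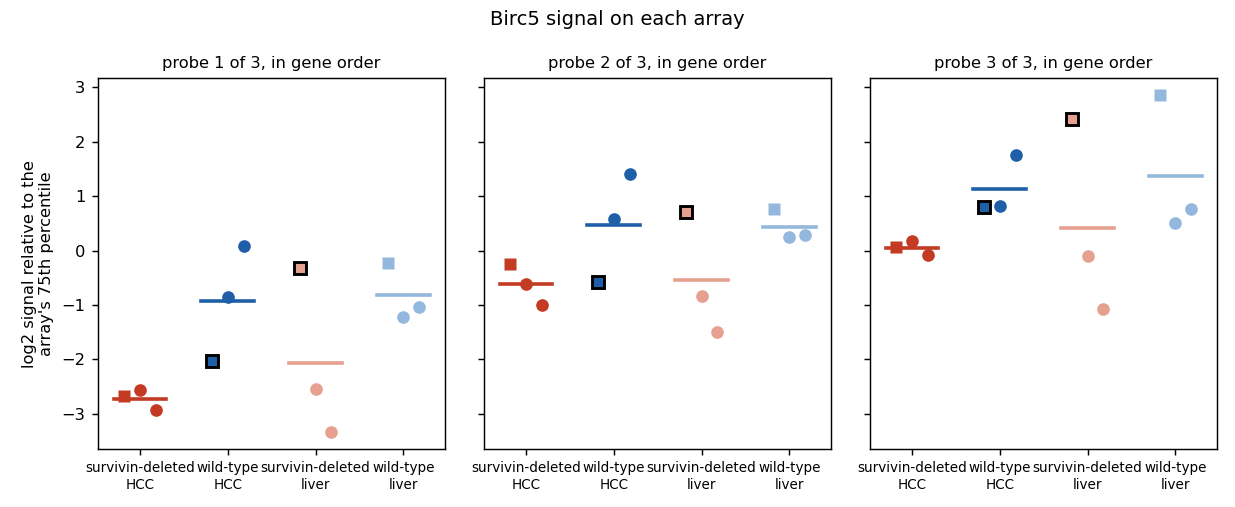
Level of the 3 Birc5 probes (log2 signal relative to the array's 75th percentile) on every array, by group. Squares are replicate 1 on slide 1, circles replicates 2 and 3 on slide 2, lines group means, and black outlines mark the 2 arrays in doubt. The 3 survivin-deleted HCC arrays lie between -2.93 and -2.56 on the first probe, below all wild-type HCC arrays.

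Across 26506 genes, 0 passed an adjusted p of 0.05 by limma with slide as a block, which is 0% of those tested, and the smallest adjusted p was 0.540. At an unadjusted p under 0.05, 913 genes (3.44%) were higher and 1178 (4.44%) lower in survivin-deleted HCC. With the 2 arrays exchanged 0 genes passed as well, and 938 (3.54%) were higher and 1412 (5.33%) lower at an unadjusted p under 0.05. The 6 HCC arrays alone also gave 0 adjusted calls, while slide 2 alone gave 1 (XIST) and the fit without both arrays in doubt gave 2 (Cyp3a41b and Dntt). Since the arrays read bulk tissue, fewer cells of a type and less RNA per cell cannot be told apart. Groups that did not overlap in either reading were counted for 378 genes higher (1.43%) and 462 lower (1.74%). The genes and lists below are therefore described by their values, and no gene in them passed the adjusted threshold as filed. The lists and their members were chosen with earlier results of these data known. A list count given beside the background share is thus a description and not a test of the list. The median difference of all genes was -0.02 as filed, -0.02 exchanged, 0.04 on slide 2 and -0.18 on slide 1.

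**Figure D2:**
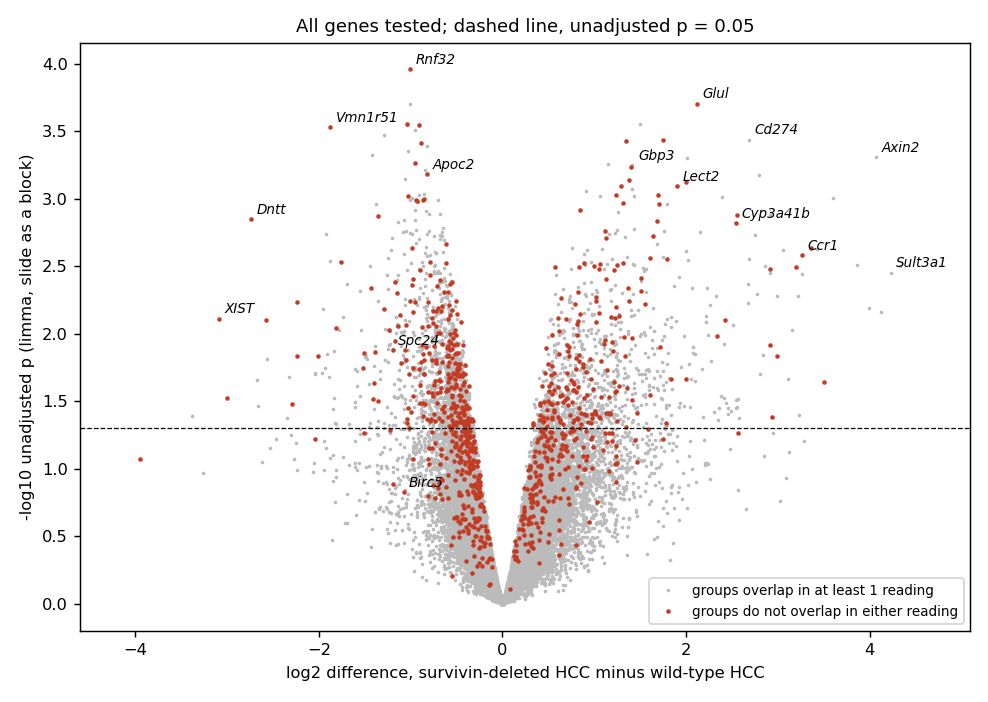
Difference (log2, survivin-deleted minus wild-type HCC) against -log10 of the unadjusted limma p for the 26506 genes tested, each point a gene. Red points are the 378 higher and 462 lower genes whose 3 arrays a group do not overlap in either reading, and the dashed line is an unadjusted p of 0.05.

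Genes of pericentral hepatocytes were higher in survivin-deleted HCC. Of 39 measured list members, 37 were higher, with a median difference of 0.82 against -0.02 over all genes, and 20 had an unadjusted p under 0.05 in that direction (background 3.44%). Exchanged, the median was 0.96 and 21 members had such a p (background 3.54%). At that p, 1 member was lower as filed (background 4.44%) and 1 exchanged (background 5.33%). Groups did not overlap in either reading for 4 members higher and 1 lower, beside 1.43% and 1.74% of all genes. The size depended on the slide, with medians of 1.21 on slide 2, 0.34 on slide 1 as filed and 0.13 on slide 1 exchanged. The mean level of the list was 3.40, 3.24 and 2.62 in the 3 survivin-deleted HCC arrays and 2.93, 1.00 and 1.38 in wild-type HCC. It was 3.21, 2.78 and 3.1 in survivin-deleted liver and 3.33, 2.38 and 2.78 in wild-type liver. Wild-type HCC replicates 2 and 3 had the lowest means of all 12 arrays, and the survivin-deleted tumours lay in the range of the non-cancerous tissue or just above it. Markers of hepatocyte identity as a whole did not part the groups in this way, with list means of 4.19, 3.92 and 4.2 in survivin-deleted and 4.31, 4.12 and 4.2 in wild-type HCC. Albumin (Alb) read 6.41, 7.09 and 7.11 in survivin-deleted HCC and 6.68, 6.89 and 6.86 in wild-type HCC.

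Glul encodes glutamine synthetase, the enzyme that pericentral cells use to capture ammonia. Its probe lies at chr1:155756765-155756824 (mm9), and it read 3.07, 3.71 and 2.49 in survivin-deleted HCC and 1.36, 0.57 and 1.00 in wild-type HCC. Every survivin-deleted array was above every wild-type array in each reading, and the difference of 2.11 (SE 0.37), or 4.33-fold, had an unadjusted p of 0.000198. Exchanged it was 1.80 (unadjusted p = 0.00990). Lect2, a secreted hepatocyte protein and target of beta-catenin, read 4.42, 4.26 and 3.51 in survivin-deleted HCC and 2.55, 1.28 and 2.65 in wild-type HCC. It too kept the groups apart in each reading, with a difference of 1.90 (SE 0.40) as filed and 1.6 exchanged. The ammonium transporter gene Rhbg read 4.32, 3.71 and 2.45 in survivin-deleted HCC and 3.40, -1.18 and -0.47 in wild-type HCC. Survivin-deleted replicate 3 lay below the slide 1 array of wild-type HCC, so the groups overlapped. In liver Rhbg read 4.09, 2.95 and 3.32 in survivin-deleted and 4.04, 1.14 and 2.15 in wild-type arrays, all above wild-type HCC replicates 2 and 3. Oat, the ornithine aminotransferase gene, chosen after its values were seen, showed the same arrangement of arrays. It read 3.68, 2.41 and 2.91 in survivin-deleted HCC and 3.01, -1.66 and -1.34 in wild-type HCC, against 3.05, 3.16 and 3.62 in survivin-deleted and 3.22, 1.84 and 3.18 in wild-type liver.

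In the list of direct targets and feedback genes of Wnt signalling 17 of 22 were higher, with a median of 0.28 as filed and 0.29 exchanged, and 7 as filed (background 3.44%) and 4 exchanged (background 3.54%) had an unadjusted p under 0.05 and were higher. Exchanged, 1 was lower at that p (background 5.33%). The median was 0.55 on slide 2, 0.17 on slide 1 as filed and -0.31 on slide 1 exchanged. Leaving out survivin-deleted HCC replicate 2, survivin-deleted HCC replicate 1 or wild-type HCC replicate 1 brought the median over both slides to 0.18, 0.51 and 0.48. Axin2, a scaffold of the complex that degrades beta-catenin and itself a target of the pathway, read -0.87, -1.57 and -3.95 in survivin-deleted HCC and -4.74, -7.30 and -6.55 in wild-type HCC. It was well above background on all 3 survivin-deleted arrays and on 1 wild-type array, and its difference of 4.07 (SE 0.80) includes dim signals. Survivin-deleted HCC replicate 3 was the lowest of its group for Axin2, Lgr5 and Sp5. Lgr5, the R-spondin receptor gene of pericentral hepatocytes, read 1.91, 2.32 and -0.85 in survivin-deleted HCC and 0.17, -3.71 and -2.24 in wild-type HCC, and Sp5, a transcription factor that Wnt induces, 0.14, -0.41 and -2.63 in survivin-deleted HCC and -1.81, -5.17 and -4.19 in wild-type HCC. Tbx3, a repressor downstream of Wnt, read 2.45, 3.59 and 2.29 in survivin-deleted HCC and 1.47, -1.15 and -0.39 in wild-type HCC, a difference of 2.80 (SE 0.57) as filed and 2.37 exchanged. Axin2 and Tbx3 parted the groups as filed, while for Lgr5 and Sp5 survivin-deleted replicate 3 lay below the slide 1 array of wild-type HCC. In the exchanged reading that array read -3.44 for Axin2, 2.75 for Tbx3, 1.74 for Lgr5 and 0.40 for Sp5, each above survivin-deleted replicate 3, so that the groups of all 4 genes overlapped. The intracellular Wnt inhibitor Nkd1 and the secreted inhibitor Notum differed by 1.6 (SE 0.57) and 0.68 (SE 0.24) as filed, and by 0.32 and 0.30 exchanged.

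**Figure D3:**
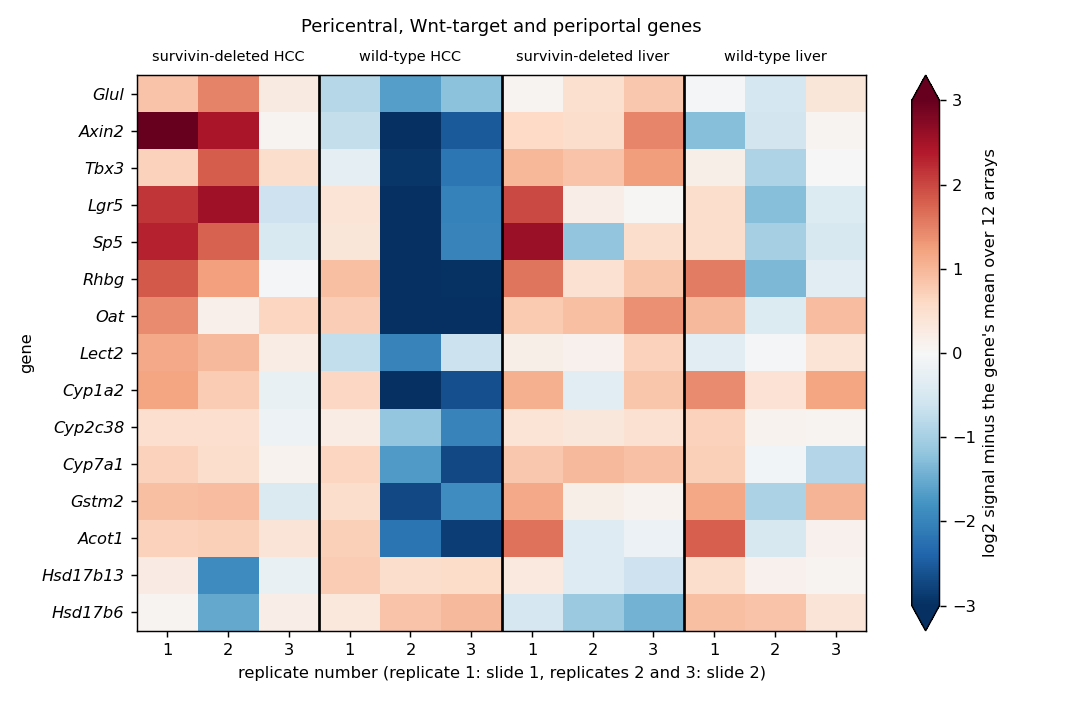
Level of pericentral, Wnt-target and periportal genes on each array, coloured by log2 signal minus the gene's mean over 12 arrays. Rows are genes and columns are arrays, with replicate 1 on slide 1. Wild-type HCC replicates 2 and 3 read low for the pericentral genes (Oat -1.66 and -1.34), and survivin-deleted HCC replicate 2 read low for Hsd17b13 (2.92).

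The promoters of Lect2 and Sp5 are shown because both genes belong to the pericentral list and hold the letters of the TCF/LEF site through which beta-catenin acts. They are RefSeq sequences (GRCm38.p6) of the 250 bases before the gene start, for Lect2 at chr13:56548539-56548788 on the minus strand and for Sp5 at chr2:70474673-70474922 on the plus strand. Capitals mark CTTTGAT or its reverse complement ATCAAAG, searched on both strands.
Lect2 promoter: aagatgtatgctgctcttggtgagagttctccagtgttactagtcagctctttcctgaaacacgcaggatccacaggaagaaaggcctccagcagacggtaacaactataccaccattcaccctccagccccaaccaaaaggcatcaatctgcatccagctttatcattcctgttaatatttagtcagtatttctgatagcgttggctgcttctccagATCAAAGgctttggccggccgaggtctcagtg
Sp5 promoter: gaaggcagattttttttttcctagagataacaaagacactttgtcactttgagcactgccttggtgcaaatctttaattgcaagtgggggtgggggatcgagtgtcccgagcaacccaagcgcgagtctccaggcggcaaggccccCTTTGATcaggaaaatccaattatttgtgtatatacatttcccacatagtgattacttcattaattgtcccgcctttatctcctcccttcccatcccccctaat

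The letters were present in 4 of 30 pericentral promoters found in the table (13.3%), in 1 of 11 Wnt-list promoters (9.09%) and in 3.21% of all 32851 promoters. A match is a description of letters and not a measured binding site.

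In the list of cytochrome P450 enzymes 38 of 60 were higher, with a median of 0.25 as filed and 0.35 exchanged. At an unadjusted p under 0.05, 13 members were higher (background 3.44%) and 1 lower (background 4.44%) as filed, and 13 were higher (background 3.54%) and 3 lower (background 5.33%) exchanged. The P450 median was 0.31 on slide 2, -0.17 on slide 1 as filed and 0.11 on slide 1 exchanged. It was 0.08 without survivin-deleted replicate 3, 0.14 without survivin-deleted replicate 1, 0.15 without wild-type replicate 2, 0.16 without wild-type replicate 3 and 0.42 without wild-type replicate 1. Cyp1a2, a target of the aryl hydrocarbon receptor, read 4.52, 4.11 and 3.13 in survivin-deleted HCC and 3.97, -0.94 and 0.70 in wild-type HCC (difference 2.68, SE 0.76; 2.53 exchanged). For its partner Cyp1a1, none of the wild-type HCC arrays gave a signal well above background, and survivin-deleted HCC was higher by at least 3.54-fold (group means -4.15 against -7.07; the bound takes, on each wild-type array, the higher of its own signal and the lowest signal among probes well above background). The groups of Cyp1a1 did not overlap in either reading. In non-cancerous liver Cyp1a1 read -6.80, -5.32 and -3.09 in survivin-deleted and -5.42, -3.43 and -2.31 in wild-type arrays. Of 11 targets of this receptor 10 were higher, with a median of 0.56 as filed, 0.50 exchanged and 0.05 on slide 1.

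Cyp7a1, the rate-limiting enzyme of bile acid synthesis, read 2.99, 2.82 and 2.41 in survivin-deleted HCC and 2.94, 0.61 and -0.39 in wild-type HCC. The difference of 1.69 (SE 0.55) was 2.51 on slide 2, 0.05 on slide 1 and, over both slides, 1.63 exchanged. The bile acid list to which it belongs had 18 of 31 members lower, with a median of -0.08 as filed and 0.09 exchanged. The steroid-inducible Cyp3a41b read 2.38, 1.49 and 1.84 in survivin-deleted HCC and -0.24, -0.81 and -0.88 in wild-type HCC. It differed by 2.55 (SE 0.59), by 2.51 on slide 2 and by 2.63 on slide 1, and exchanged it was 2.38. Cyp3a genes are near-identical copies, and a probe may read several of them. Among the sulfotransferases, the estrogen sulfotransferase gene Sult1e1 read 3.04, 3.57 and 3.29 in survivin-deleted HCC and 1.97, -1.01 and 1.92 in wild-type HCC, with no overlap in either reading. Sult3a1 read 2.16, 0.20 and 2.02 in survivin-deleted HCC and -1.50, -2.03 and -4.79 in wild-type HCC, and exchanged its groups overlapped, since the slide 1 array then read 1.52.

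The glutathione transferase genes Gstm2 and Gstm3 differed by 1.81 (SE 0.60) and 0.82 (SE 0.34), or 1.61 and 0.98 exchanged. The NRF2 target list to which they belong had 24 of 32 members higher, with a median of 0.09 as filed, 0.17 exchanged and -0.06 on slide 1 exchanged. The fatty acid genes Acot1, an acyl-CoA thioesterase, and Cyp4a14, a fatty acid hydroxylase, both PPAR-alpha targets, differed by 2.03 (SE 0.51) and 2.45 (SE 1.00). Exchanged they differed by 1.72 and 2.47, and on slide 1 as filed by -0.01 and -0.70. In the PPAR-alpha list 21 of 39 members were lower, beside 13932 of 26506 among all genes. Its median was -0.22 as filed, 0.00 exchanged, -0.06 on slide 1 and 0.02 without survivin-deleted replicate 2. Cpt1a, which admits fatty acids to mitochondria, and the fatty acid binding protein gene Fabp1 differed by -0.71 (SE 0.29) and -0.62 (SE 0.22).

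Of 35 periportal genes 26 were lower, with a median of -0.38 as filed and -0.34 exchanged, and of -0.02 on slide 1 exchanged. With an unadjusted p under 0.05, 2 were lower (background 4.44%) and 1 higher (background 3.44%) as filed. Exchanged, 1 was lower (background 5.33%) and 2 were higher (background 3.54%). The list mean was 3.73, 2.30 and 3.97 in survivin-deleted HCC and 4.14, 3.62 and 3.76 in wild-type HCC, with survivin-deleted replicate 2 the lowest of the 6. Without that array the median was -0.09, and without survivin-deleted replicate 3 it was -0.73. The lipid droplet enzyme gene Hsd17b13 read 5.06, 2.92 and 4.59 in survivin-deleted HCC and 5.57, 5.34 and 5.35 in wild-type HCC. Its groups did not overlap in either reading, and the difference was -1.23 (SE 0.38), or -0.68 without survivin-deleted replicate 2. Hsd17b6, an androgen-metabolising enzyme, read 2.72, 1.12 and 2.86 in survivin-deleted HCC and 2.97, 3.50 and 3.61 in wild-type HCC, and exchanged its groups overlapped. Among secreted and transport genes, Serpina1c, an alpha-1-antitrypsin gene of a family of near-identical copies, differed by -0.53 (SE 0.21) and the organic anion transporter gene Slco1a4 by -1.17 (SE 0.38), neither overlapping in either reading.

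Lipid synthesis genes had lower medians on slide 2 and higher ones on slide 1. Fatty acid synthesis had 21 of 25 members lower (median -0.22, -0.23 exchanged, -0.55 on slide 2 and 0.11 on slide 1), and cholesterol synthesis 18 of 26 (median -0.22, -0.26 exchanged, -0.46 on slide 2 and 0.35 on slide 1). Liver pyruvate kinase, Pklr, read -1.49, -1.60 and -0.80 in survivin-deleted HCC and -1.09, 0.46 and 0.01 in wild-type HCC. Thrsp, a regulator of lipogenesis, read 4.40, 3.75 and 3.99 in survivin-deleted HCC and 5.43, 4.52 and 4.35 in wild-type HCC. On slide 1 as filed Pklr and Thrsp differed by -0.40 and -1.03, opposite in direction to the list medians there. Exchanged, they differed by -1.22 and -0.41 over both slides. In contrast 28 of 37 glycolysis and hypoxia genes were higher, with a median of 0.46 as filed and 0.43 exchanged. The median as filed was -0.07 on slide 1, 0.07 without survivin-deleted replicate 2 and 0.28 without wild-type replicate 2. Hexokinase 2 (Hk2) differed by 1.55 (SE 0.49), the stress-response gene Ndrg1 by 1.18 (SE 0.34) and Egln3, which marks hypoxia-inducible factor for degradation, by 1.82 (SE 0.67).

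Of 40 macrophage and Kupffer-cell genes 36 were higher, with a median of 0.56 as filed and 0.55 exchanged. At an unadjusted p under 0.05, 9 were higher as filed (background 3.44%) and 9 exchanged (background 3.54%), and 5 had groups that did not overlap in either, beside 1.43% of all genes. The list mean was 1.77, 1.76 and 1.24 in survivin-deleted HCC and 1.57, 0.93 and 0.58 in wild-type HCC. The median on slide 1 was -0.02 and on slide 2 0.82. Leaving out survivin-deleted replicate 2 or wild-type replicate 3 brought the median over both slides to 0.26 and 0.35.

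Msr1, the macrophage scavenger receptor gene, read 0.04, -0.26 and -0.87 in survivin-deleted HCC and -1.38, -1.51 and -1.25 in wild-type HCC. Its groups did not overlap in either reading, and the difference of 1.02 (SE 0.28) was present on slide 1 (1.42, and 1.23 exchanged) as on slide 2 (0.82). Ly86, a partner of the Toll-like receptor homologue RP105, read 1.45, 2.45 and 1.36 in survivin-deleted HCC and 0.34, 1.18 and 0.04 in wild-type HCC. It too kept the groups apart in each reading. Ccr1, a chemokine receptor gene of myeloid cells, read -0.27, 0.20 and -0.92 in survivin-deleted HCC and -6.87, -1.59 and -2.33 in wild-type HCC. Its slide 1 wild-type array was not well above background, and its difference of 3.27 (SE 0.82) was 6.6 on slide 1 and 1.6 on slide 2. Mertk, the receptor by which macrophages clear dead cells, differed by 0.58 (SE 0.20).

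Signalling genes of leukocytes were among the 15 genes of smallest unadjusted p that were higher and whose groups stayed apart in each reading. Pik3cd, the leukocyte-enriched catalytic subunit p110 delta, read 0.98, 1.82 and 2.44 in survivin-deleted HCC and 0.13, 0.59 and 0.31 in wild-type HCC (difference 1.40, SE 0.28, unadjusted p = 0.000583). Ncf4, a subunit of the phagocyte NADPH oxidase, read 1.34, 1.77 and 1.07 in survivin-deleted HCC and 0.18, -0.01 and -0.12 in wild-type HCC. Its difference was 1.38 (SE 0.28) as filed, 1.36 exchanged, 1.48 on slide 2 and 1.16 on slide 1. Hmha1 (now Arhgap45), a GTPase regulator of blood cells, read 2.73, 2.81 and 2.19 in survivin-deleted HCC and 0.92, 1.76 and 1.32 in wild-type HCC. P2ry6, a receptor for extracellular UDP, read 0.10, 1.11 and -0.34 in survivin-deleted HCC and -1.45, -0.95 and -1.86 in wild-type HCC. These 4 genes were higher on each slide and in each reading, which follows from the rule that their groups do not overlap.

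T-cell genes were higher on slide 2 and near 0 or lower on slide 1. Of 29 genes 26 were higher, with a median of 0.91 as filed, 0.60 exchanged, 1.42 on slide 2, 0.08 on slide 1 and -0.79 on slide 1 exchanged. The number with an unadjusted p under 0.05 higher was 7 as filed (background 3.44%) and 1 exchanged (background 3.54%), and the number lower was 1 (background 4.44%) and 2 (background 5.33%). The list mean was -1.83, -1.0 and -1.93 in survivin-deleted HCC and -1.82, -2.43 and -3.02 in wild-type HCC, and the exchanged slide 1 array had -1.14, higher than survivin-deleted replicates 1 and 3. Without survivin-deleted replicate 2 the median was 0.43, and without replicate 1 it was 1.38. Cd3d, a chain of the T-cell receptor complex, read -2.77, -0.44 and -2.13 in survivin-deleted HCC and -3.34, -2.84 and -4.41 in wild-type HCC. The adhesion receptor gene Cd2 read -1.69, -0.39 and -1.93 in survivin-deleted HCC and -1.84, -2.93 and -4.43 in wild-type HCC. Survivin-deleted replicate 2 was the highest of its group for both. Lck, the kinase that starts T-cell receptor signals, differed by 1.20 (SE 0.50) and Cd8a, chosen after its values were seen, by 0.68 (SE 0.33).

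Zap70, the kinase recruited to the activated T-cell receptor, went the other way. It read 2.62, 1.41 and 2.00 in survivin-deleted HCC and 2.66, 2.77 and 3.20 in wild-type HCC, with no overlap in either reading and a difference of -0.86 (SE 0.29), but the slide 1 arrays differed by only -0.04. The effector genes Ifng, interferon-gamma, and Gzma, granzyme A, differed by 2.56 (SE 1.04) and 1.56 (SE 0.56). On slide 1 exchanged they were -2.08 and -0.54, and without survivin-deleted replicate 2 the difference of Ifng was 1.19. Cytotoxic and NK cell genes had 23 of 30 members higher, with a median of 0.42, or 0.11 without survivin-deleted replicate 2 and 0.26 without wild-type replicate 3. It was 0.33 exchanged.

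Immune checkpoint genes were higher in 22 of 26, with a median of 0.62 as filed and 0.41 exchanged, and 9 as filed (background 3.44%) and 4 exchanged (background 3.54%) had an unadjusted p under 0.05 and were higher. Exchanged, 1 was lower at that p (background 5.33%). The median was 0.73 on slide 2, 0.30 on slide 1 as filed and -0.21 on slide 1 exchanged. Without survivin-deleted replicate 2 the median was 0.24. Cd274, which encodes the inhibitory ligand PD-L1, read 0.45, 0.67 and -1.32 in survivin-deleted HCC and -2.86, -2.01 and -3.38 in wild-type HCC (difference 2.68, SE 0.50). Its groups parted as filed, and exchanged survivin-deleted replicate 3 lay below the slide 1 array at -0.79. Cd200r1, an inhibitory receptor of myeloid cells, read -2.89, -1.87 and -3.0 in survivin-deleted HCC and -4.27, -3.61 and -3.97 in wild-type HCC and kept the groups apart in each reading. Havcr2 (TIM-3), Cd86, Icos and Pdcd1lg2 (PD-L2) differed by 1.74 (SE 0.62), 1.32 (SE 0.46), 1.36 (SE 0.43) and 1.52 (SE 0.56). Exchanged the 4 were 1.55, 1.32, 1.22 and 1.22.

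Neutrophil genes had a median of 0.56 as filed and 0.55 exchanged, with 28 of 33 higher. The direction differed by slide, with 1.14 on slide 2, -0.57 on slide 1 and -0.53 on slide 1 exchanged. Without survivin-deleted replicate 2 it was 0.24, without wild-type replicate 2 0.16 and without wild-type replicate 1 0.91. Clec4e, a receptor for microbial and cell debris, read -3.77, -1.01 and -3.06 in survivin-deleted HCC and -3.85, -4.35 and -4.44 in wild-type HCC, and the protease inhibitor gene Stfa3 -3.16, -0.88 and -2.59 in survivin-deleted HCC and -3.08, -4.01 and -4.31 in wild-type HCC. Chemokines and their receptors had 37 of 44 higher, with a median of 0.73 as filed, 0.63 exchanged, 1.01 on slide 2, -0.08 on slide 1, -0.31 on slide 1 exchanged and 0.42 without survivin-deleted replicate 2.

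B-cell and plasma-cell genes had a median of 0.41 as filed and 0.35 exchanged, with 18 of 24 higher. The number higher at an unadjusted p under 0.05 was 2 as filed (background 3.44%) and 7 exchanged (background 3.54%). On slide 1 the median was -0.19 as filed and -0.06 exchanged, and without survivin-deleted replicate 2 it was 0.24 over both slides. Ms4a1 (CD20) read -4.17, -4.02 and -3.93 in survivin-deleted HCC and -3.47, -5.87 and -6.07 in wild-type HCC. The array filed as wild-type HCC replicate 1 was the highest of the 6. Dntt, terminal deoxynucleotidyl transferase, which adds bases during V(D)J recombination in lymphocyte precursors, was lower. Its probe lies at chr19:41133936-41133995 (mm9), and it read -0.55, -2.56 and -2.41 in survivin-deleted HCC and 0.04, 1.43 and 1.24 in wild-type HCC, with no overlap in either reading, and differed by -2.74 (SE 0.62) as filed, by -3.82 on slide 2 and by -0.59 on slide 1. Leaving out wild-type HCC replicate 1 gave an adjusted p of 0.0222 for it by limma. Xrcc4, of DNA end joining, read -0.53, -0.66 and -0.42 in survivin-deleted HCC and 0.22, 0.24 and 0.04 in wild-type HCC, also with no overlap in either reading. The pre-B-cell list that holds both had 10 of 15 members higher and a median of 0.22 as filed and 0.07 exchanged.

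Interferon-gamma GTPases, which attack vacuoles of intracellular pathogens, were higher in 19 of 21, with a median of 0.63 as filed, 0.50 exchanged, -0.14 on slide 1 exchanged and 0.34 without survivin-deleted replicate 2. Gbp3 read 1.6, 1.90 and 1.03 in survivin-deleted HCC and -0.06, 0.45 and -0.11 in wild-type HCC (difference 1.42, SE 0.28, unadjusted p = 0.000569). Exchanged, the slide 1 array at 1.12 lay just above survivin-deleted replicate 3. Igtp and Gbp2 differed by 1.03 (SE 0.28) and 1.79 (SE 0.72) as filed. Exchanged they differed by 0.71 and 0.94, and by -0.41 and -0.14 on slide 1. Type I interferon-stimulated genes had 35 of 51 members higher and a median of 0.20 as filed and 0.27 exchanged. Mice of both groups had been given poly(IC), an inducer of type I interferon. Ifit1, an inhibitor of viral translation, read 1.16, 1.54 and 1.88 in survivin-deleted HCC and -0.23, 1.06 and 1.00 in wild-type HCC, and kept the groups apart in each reading. Oas3, a sensor of double-stranded RNA, and Oasl2 differed by 1.75 (SE 0.44) and 0.66 (SE 0.27) as filed. Exchanged these were 1.10 and 0.76, and -0.30 and 0.82 on slide 1. In antigen presentation 24 of 33 were higher with a median of 0.20 as filed and 0.20 exchanged. H2-DMb2, which loads peptides on class II molecules, differed by 1.44 (SE 0.47) and the immunoproteasome subunit gene Psmb10 by 0.44 (SE 0.16).

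The promoters of Gbp3 and Ifit1 are shown because they hold the letters of the interferon-stimulated response element, which STAT and IRF factors bind. They are again the 250 bases before the gene start in RefSeq (GRCm38.p6), at chr3:142559794-142560043 and chr19:34640639-34640888, both on the plus strand. The motif searched was GAAA, any 2 bases, GAAA, on both strands, so that on the printed strand the capitals mark TTTC, any 2 bases, TTTC. In Gbp3 the 2 matches overlap.
Gbp3 promoter: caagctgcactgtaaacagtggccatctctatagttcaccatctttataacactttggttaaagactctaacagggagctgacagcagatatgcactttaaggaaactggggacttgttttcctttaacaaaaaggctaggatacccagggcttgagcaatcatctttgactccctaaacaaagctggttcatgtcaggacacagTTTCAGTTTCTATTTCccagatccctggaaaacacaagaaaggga
Ifit1 promoter: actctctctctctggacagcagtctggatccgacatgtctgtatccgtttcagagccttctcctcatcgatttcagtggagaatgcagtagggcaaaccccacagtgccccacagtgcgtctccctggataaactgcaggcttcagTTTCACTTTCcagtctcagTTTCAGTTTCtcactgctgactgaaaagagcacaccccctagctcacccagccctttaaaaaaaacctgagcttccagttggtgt

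The letters were present in 9 of 10 promoters of interferon-gamma GTPases found in the table (90%), in 13 of 36 of type I interferon-stimulated genes (36.1%) and in 2.98% of all 32851 promoters.

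Beside these immune lists, XIST, the RNA of the inactive X chromosome, is described although all mice are labelled male, and was chosen after its values were seen. Its brightest probe read -4.89, -6.18 and -6.33 in survivin-deleted HCC and -4.12, -1.88 and -2.13 in wild-type HCC. In liver it read -2.32, -5.96 and -6.09 in survivin-deleted and -1.77, -1.31 and -1.87 in wild-type arrays. Exchanged, the 3 wild-type HCC arrays lay between -2.32 and -1.88 and the difference was -3.69 (unadjusted p = 1.00e-05). As filed it was -3.09 (SE 0.93). The probe was well above background on 1 of the 3 survivin-deleted HCC arrays and on all 3 wild-type ones, so these differences include dim signals. The array holds 5 probes named XIST, whose differences as filed ran from -4.07 to -3.07, and 2 named Xist. The brighter Xist probe read -1.91, -3.78 and -5.72 in survivin-deleted HCC and -1.70, -2.31 and -2.95 in wild-type HCC, with overlapping groups and a difference of -1.48 as filed and -0.66 exchanged (limma unadjusted p = 0.0965 and 0.535). The other Xist probe differed by -1.38 as filed and -1.31 exchanged (limma unadjusted p = 0.142 and 0.175). Of the Y-linked genes, Eif2s3y read -0.02, 0.84 and 1.41 in survivin-deleted HCC and -1.51, 1.28 and 1.33 in wild-type HCC, and Ddx3y 0.80, 1.77 and 0.67 in survivin-deleted HCC and 0.55, 1.95 and -5.00 in wild-type HCC, where replicate 3 stood far below the rest. The sources used here do not give the donors' sex, and the part of donor or female cells in the immune lists was not tested.

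Mitotic genes leaned lower in survivin-deleted HCC, with the reading of the 2 arrays deciding how many. Of 44 mitosis and spindle genes 33 were lower, with a median of -0.24 as filed and -0.43 exchanged. At an unadjusted p under 0.05, 3 were lower as filed (background 4.44%) and 15 exchanged (background 5.33%). On slide 2 the median was -0.53, and slide 1 gave 0.16 as filed and -0.30 exchanged. The list mean was -0.81, -1.64 and -1.43 in survivin-deleted HCC and -1.23, -1.14 and -0.63 in wild-type HCC. The non-cancerous livers of slide 2 had -2.09 and -2.18 with and -1.44 and -1.32 without the deletion. Those of slide 1 had, as filed, -0.66 with and -0.59 without it, both above the slide 1 HCC arrays.

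The kinetochore gene Spc24 read 0.79, -0.45 and 0.51 in survivin-deleted HCC and 1.05, 1.63 and 1.76 in wild-type HCC, with no overlap in either reading (difference -1.20, SE 0.40; -1.27 exchanged). Cenpa, the centromeric histone, read 0.29, -1.18 and -1.05 in survivin-deleted HCC and 0.22, 0.02 and 0.43 in wild-type HCC. Cyclin B1 (Ccnb1) read 0.45, -2.62 and -2.13 in survivin-deleted HCC and 0.28, -0.88 and 0.00 in wild-type HCC. For both genes survivin-deleted replicates 2 and 3 were the lowest of the 6 arrays and replicate 1 lay above wild-type replicates 1 and 2, so the groups overlapped. Without wild-type HCC replicate 3 the list median was -0.02, and without wild-type HCC replicate 1 it was -0.70.

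Within the chromosomal passenger complex and its partners 11 of 14 genes, Birc5 among them, were lower, with a median of -0.17 as filed and -0.39 exchanged, 0.05 without wild-type replicate 3 and -0.67 without wild-type replicate 1. Cdca8, borealin, read 0.12, -0.74 and -0.62 in survivin-deleted HCC and 0.36, -0.35 and 0.38 in wild-type HCC. Incenp, the scaffold, read 0.86, -0.14 and -0.54 in survivin-deleted HCC and 0.79, -0.87 and -0.69 in wild-type HCC, a difference of 0.32 (SE 0.20). Aurkb, the kinase, read -1.98, -3.24 and -2.61 in survivin-deleted HCC and -6.49, -2.68 and -2.31 in wild-type HCC. Its slide 1 wild-type array was not well above background. The difference of Aurkb was 1.21 (SE 0.80) as filed and 1.16 exchanged, against -0.43 on slide 2. Leaving out 1 HCC array at a time gave 0.09 to 1.83.

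Replication genes had 23 of 38 members lower, with a median of -0.12 as filed and -0.23 exchanged. Slbp, the histone mRNA binding protein gene, differed by -0.53 (SE 0.19) as filed. Exchanged, Slbp differed by -0.13 with overlapping groups, and slide 1 then gave 0.82. In DNA damage repair 43 of 62 genes were lower and the median was -0.14 as filed and -0.13 exchanged. Nbn, which senses double-strand breaks, Apex1, the abasic-site endonuclease, and Xrcc2 differed by -0.57 (SE 0.16), -0.55 (SE 0.18) and -0.81 (SE 0.26).

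Genes of apoptosis were split, with 21 of 40 higher and a median of 0.08 as filed and 0.03 exchanged. The death receptor gene Fas read 0.74, 0.80 and 0.90 in survivin-deleted HCC and -1.01, 0.03 and 0.47 in wild-type HCC, and kept the groups apart in each reading. Of 27 p53 targets 19 were higher, with a median of 0.17 as filed and 0.07 exchanged. Phlda3, an inhibitor of Akt, read 1.34, 1.10 and 1.39 in survivin-deleted HCC and -0.04, 0.50 and 0.37 in wild-type HCC. Mdm2, the p53 ubiquitin ligase, read 1.47, 2.45 and 2.46 in survivin-deleted HCC and -0.32, 2.12 and 2.18 in wild-type HCC. Exchanged, these 2 genes differed by 0.52 and 0.25, and their groups overlapped.

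Further genes were named by rule for a small unadjusted p among genes whose groups did not overlap in either reading. Higher in survivin-deleted HCC were the imprinted growth regulator Phlda2 by 1.29 (SE 0.27) and the DNA glycosylase gene Neil2 by 1.32 (SE 0.29). The G-protein regulator Rgs12 differed by 1.12 (SE 0.26), the nucleoside transporter gene Slc28a2 by 1.68 (SE 0.38), Plekho1 by 1.13 (SE 0.27), the hair follicle protein gene Tchh by 2.56 (SE 0.58) and the neuronal transcription factor gene Phox2a by 0.85 (SE 0.19). Phlda2 read -2.97, -2.24 and -2.44 in survivin-deleted HCC and -3.88, -4.13 and -3.52 in wild-type HCC, and Neil2 -1.45, -1.16 and -1.61 in survivin-deleted HCC and -2.87, -2.19 and -3.11 in wild-type HCC. In both genes every survivin-deleted array lay above every wild-type array, which the naming rule required.

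Lower with the smallest unadjusted p, 0.000111, was the ring finger gene Rnf32. It read -4.52, -5.35 and -5.44 in survivin-deleted HCC and -3.54, -4.33 and -4.42 in wild-type HCC, and it was well above background on 2 of the survivin-deleted arrays. Apoc2, the cofactor of lipoprotein lipase, read 6.35, 5.34 and 5.70 in survivin-deleted HCC and 6.93, 6.42 and 6.49 in wild-type HCC. Mnat1, an assembly factor of the kinase that activates cyclin-dependent kinases, read -0.93, -1.52 and -1.24 in survivin-deleted HCC and 0.25, -0.68 and -0.61 in wild-type HCC. In all 3 genes every wild-type array lay above every survivin-deleted array, which the naming rule required.

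Pigk, of the transamidase that attaches glycolipid anchors, differed by -1.03 (SE 0.22), the autophagy conjugating enzyme gene Atg10 by -0.85 (SE 0.18), and Tecr, of very long fatty acid synthesis, by -0.79 (SE 0.20). The ubiquitin ligase gene Rnf5 differed by -0.62 (SE 0.15), the kinase gene Nek1 by -0.99 (SE 0.24), Lyrm4, of iron-sulphur cluster assembly, by -0.79 (SE 0.21), and Tubgcp2, of the gamma-tubulin complex, by -0.55 (SE 0.15). Thap2, the lipase gene Lipo1 (now Lipo3) and the pheromone receptor gene Vmn1r51 differed by -0.93 (SE 0.20), -1.36 (SE 0.31) and -1.88 (SE 0.34). Pgm3, of amino sugar synthesis, read 1.35, 0.47 and 0.70 in survivin-deleted HCC and 4.58, 1.44 and 1.75 in wild-type HCC, and its difference of -1.75 (SE 0.45) was -0.69 exchanged, and the array filed as wild-type HCC replicate 1 stood above the rest.

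Of 38 liver tumour and fetal genes 28 were higher, with a median of 0.21 as filed, 0.12 exchanged, 0.20 on slide 1 as filed and -0.27 on slide 1 exchanged. At an unadjusted p under 0.05, 2 were higher (background 3.44%) and 1 lower (background 4.44%) as filed. Exchanged, 1 was higher (background 3.54%) and 2 were lower (background 5.33%). Afp, the fetal albumin homologue used as a marker of HCC, read 3.03, 2.95 and 0.40 in survivin-deleted HCC and 1.42, 1.97 and -0.36 in wild-type HCC. In non-cancerous liver Afp read 3.99, 1.19 and 0.86 in survivin-deleted and 1.69, 1.31 and 3.07 in wild-type arrays, which overlapped both tumour groups. Gpc1, a glypican of the cell surface, read -0.21, -0.10 and -0.63 in survivin-deleted HCC and 0.60, 1.17 and 0.80 in wild-type HCC and kept the groups apart in each reading. Bmp7, a bone morphogenetic protein named from the list of BMP, Id and iron genes, differed by 2.91 (SE 0.76) as filed and 2.47 exchanged. Its groups overlapped in each reading, and that list had 16 of 28 members lower and a median of -0.06.

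Stellate cell and matrix genes had 36 of 46 members higher, with a median of 0.23 as filed and 0.06 exchanged, or -0.11 without survivin-deleted replicate 2. Among them were the matrix crosslinker Loxl2 (1.11, SE 0.36) and the protease inhibitor Timp1 (0.71, SE 0.28). The medians were 0.08 as filed and -0.07 exchanged for 39 endothelial genes, 0.08 and 0.05 for 24 cholangiocyte markers, 0.11 and 0.05 for 25 erythroid genes and 0.11 and -0.01 for 15 adipocyte markers. The trypsinogen gene Prss1, of pancreatic acinar cells, was not well above background on any survivin-deleted HCC array and was at least 3.1-fold lower there (group means -6.66 against -4.08), and Prss2 differed by -1.93 (SE 0.68). Trypsinogen copies are near-identical, and the acinar list as a whole had 11 of 16 members higher.

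**Figure D4:**
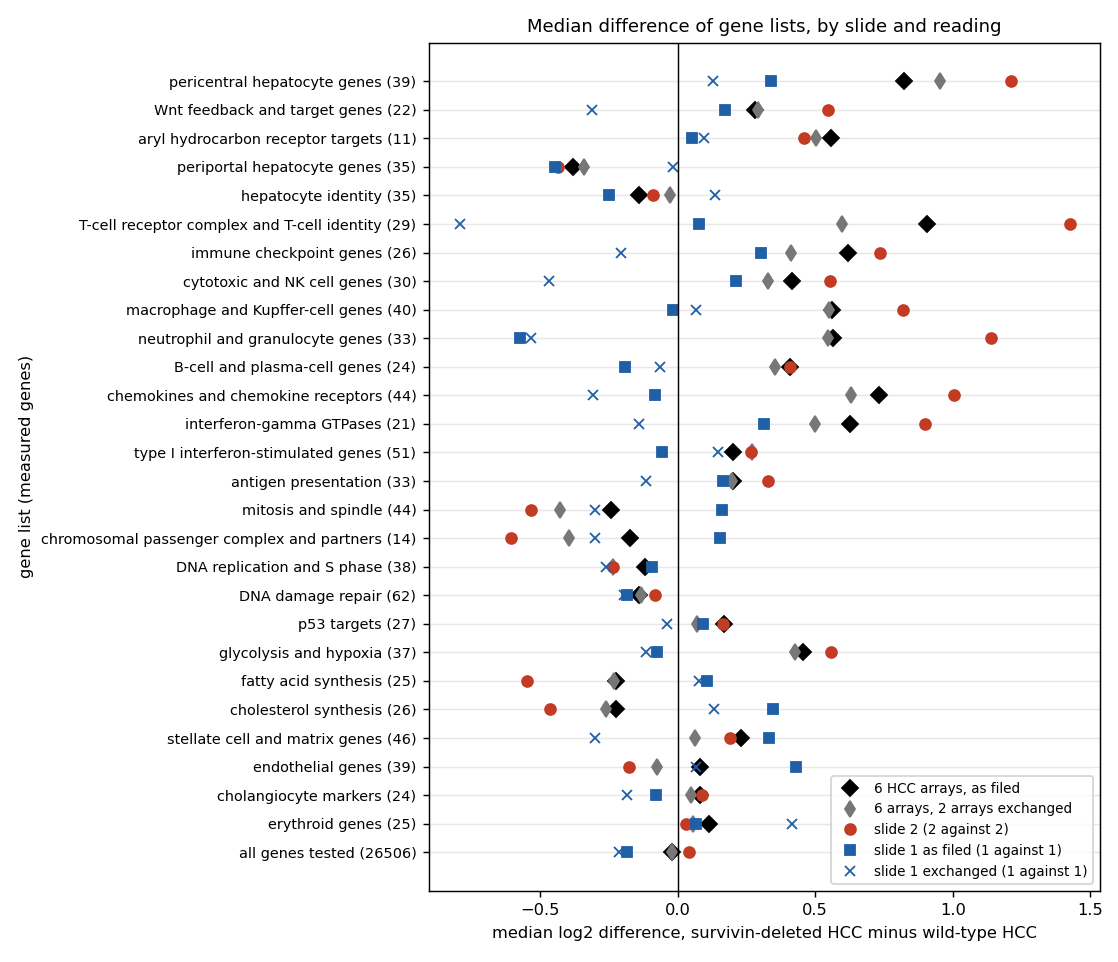
Median difference (log2, survivin-deleted minus wild-type HCC) of gene lists over all 6 arrays as filed and exchanged, on slide 2 and on slide 1 in each reading, with the number of measured genes in brackets. The pericentral median is 0.82 over 6 arrays and 1.21 on slide 2, and the T-cell median ranges from -0.79 to 1.42.

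Whether the deletion difference in HCC departs from that in non-cancerous liver was tested as the difference between the 2 deletion changes, HCC minus liver. No gene passed an adjusted p of 0.05 by limma (0%, smallest adjusted p 0.913). At an unadjusted p under 0.05, 224 genes (0.845%) had the higher and 646 (2.44%) the lower change in HCC. Phlda2 and Neil2 had differences of 2.26 and 1.97 (unadjusted p = 0.000168 and 0.000721). For Glul and Cyp1a2 they were 1.57 and 3.16 (unadjusted p = 0.0129 and 0.0155), and for Ncf4 and Dntt 1.33 and -2.73 (unadjusted p = 0.00808 and 0.0117). These genes were named by their p in HCC, which is part of this contrast, so the p-values here are not separate evidence. For Birc5, named as the target, the difference was -0.12 (limma unadjusted p = 0.905).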

How the data were processed

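Total RNA from TRIzol extracts was labelled with Cy3 and hybridised to single-colour Agilent mouse arrays, per the labels' protocols. The deposited intensities are Feature Extraction 10.7 outputs, per the submitters' processing notes, with spatial and multiplicative detrending switched on and background subtraction off, per the file headers. Each array has 62976 spots, of which 59305 are not controls. The value table the authors deposited holds log2 values that follow the scanner signals after 75th percentile scaling. It served as an alternative.

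Here log2 of the processed signal minus each array's 75th percentile over non-control probes was used. Spots of a probe were averaged, and no spot was saturated. For 636 probes every spot was flagged on at least 1 array. Such a probe had no value there, which did not by itself remove it from the fit. A probe was kept (39136 in all) if at least 1 group had it well above background on all 3 of its arrays. Each of 26506 genes, by array gene name, was read from its brightest kept probe, and 11477 of these names are clone-like. Linear models over all 12 arrays (R 4.3.3, limma 3.58.1, lmFit and eBayes) had 4 group means and slide as a block, leaving 7 residual degrees of freedom, with Benjamini-Hochberg adjustment over all genes. The number of arrays limits the precision. 0 columns of the value table could not be assigned to a sample.

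Arrays of the same replicate number deviated together from their HCC group means (r = 0.656, 0.382 and 0.419 for numbers 1, 2 and 3, across 26195 genes), but other numbers gave -0.583 to 0.375 and, within slide 2, 0.0912. Number 1 is also slide 1, and the group means span both slides, so the slide enters the deviations of every number. In the correlations over both slides, the pairing and the slide therefore cannot be told apart.

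Genes were named by rule: Birc5, up to 15 per direction of smallest unadjusted p with groups not overlapping in either reading, and from each of 47 lists the first member and up to 6 of smallest p. Some genes that the rule names are not reported here. Oat, Cd8a and XIST were chosen after their values were seen. The members and the lists were chosen with earlier results of these data known. The tried alternatives change the block, the slides and arrays used, the scaling, the background correction, the filter, the probe choice and the variance model. Promoters come from the RefSeq table for GRCm38.p6, and probe positions are those of the array files (mm9).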

Additional observations from a re-analysis of the deposited data

How the results depend on the processing

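As filed, 0 genes passed the adjusted threshold by limma, with 913 higher and 1178 lower at an unadjusted p under 0.05. Slide 2 alone gave 1 call (XIST) and 2695 higher and 2347 lower genes at that p. Leaving out both arrays in doubt gave 2 calls (Cyp3a41b and Dntt) and 1660 higher and 1538 lower, and without the slide block there were 0 calls and 301 higher and 185 lower. The value table gave 0 calls, with 929 higher and 1423 lower, and normexp correction 0 calls, with 1088 higher and 1345 lower. The higher genes made up 43.7% of the genes at an unadjusted p under 0.05 as filed, 53.5% on slide 2 and 61.9% without the slide block. Leaving out 1 HCC array at a time gave 0 to 2 calls, 558 to 1420 higher and 612 to 1508 lower genes. The 2 calls, Dntt and Sytl4, appeared without wild-type HCC replicate 1. With the replicate number as a block in place of the slide there were 0 calls, 894 higher and 1086 lower genes, so the pairing changed no call.

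Of 2179 values of named genes under alternatives, 2121 kept their direction and side of the threshold or stayed within 1 SD, 51 moved by more, 4 passed the threshold only under the alternative and 3 changed sign. Aurkb was -0.43 on slide 2 and -0.12 without both arrays in doubt. Alb was -0.19 after normexp correction. The cause was not tested. Of 940 list medians 42 moved by more than the spread between arrays. Signals not well above background on 1 or more HCC arrays limit Axin2, Cyp1a1, Ccr1, Aurkb, Prss1, XIST, Rnf32, Oas3, Ifng, Pdcd1lg2 and Ms4a1.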

Other observations

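Genes whose expression in liver depends on sex gave mixed values. Of 26 female-biased liver genes 17 were higher in survivin-deleted HCC, with a median difference of 0.37 as filed and 0.31 exchanged, against -0.02 over all genes. Of 28 male-biased genes 17 were lower, with a median of -0.16 as filed and 0.08 exchanged. The mean level of the male-biased list was 2.76, 0.55 and 2.63 in survivin-deleted HCC and 2.98, 1.71 and 1.89 in wild-type HCC, so survivin-deleted replicate 2 was the lowest of the 6 arrays, as it was for the periportal list. Without that array the male-biased median was 0.15. Among the 6 arrays the same one had the highest mean of the T-cell list (-1.0) and a hepatocyte identity mean of 3.92.

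Genes secreted by senescent cells were higher in 28 of 34, with a median of 0.39 as filed, 0.27 exchanged and -0.28 on slide 1 exchanged. The growth hormone and IGF axis had 16 of 24 members higher and a median of 0.22, which was -0.36 on slide 1. Sulfotransferases and UDP-glucuronosyltransferases had 17 of 26 higher, with a median of 0.14. Regulators of G-protein signalling had 11 of 17 higher, with a median of 0.12. As filed, medians closer to 0 were found for bile acid synthesis and transport (-0.08, 31 genes) and for ER stress and ATF4 genes (-0.04, 35 genes). The same held for circadian clock genes (-0.05, 21 genes), BMP, Id and iron genes (-0.06, 28 genes) and acute-phase proteins (0.02, 35 genes). Exchanged, these medians were 0.09, 0.01, -0.04, 0.04 and 0.20, in that order. Of the acute-phase genes 25 of 35 were then higher, and their slide 1 median was -0.22 as filed and 0.57 exchanged. Immediate-early genes, which respond within minutes to handling and stress, had a median of 0.10 over 29 genes.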
